A study of Mus musculus with 1187 samples.

Results

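Wnt/beta-catenin signalling was examined through 10 of the 46517 genes in the deposited count table, each taken by its name: the receptor Fzd4, its partner Tspan12, the co-receptors Adgra2 and Reck, the transcription factors Lef1 and Tcf7, and the pathway targets Axin2, Nkd1, Apcdd1 and Tnfrsf19. They were measured with Smart-seq2, a full-length single-cell RNA method, in 1187 sorted brain endothelial cells. The mice were 3 months old, on a C57BL/6 background, and carried a Cldn5-GFP reporter of endothelial cells and a Cspg4-DsRed reporter of pericytes, and cells with GFP and without DsRed were sorted. The sample labels give 590 cells as Pdgfb ret/+ and 597 as Pdgfb ret/ret. The ret allele removes the retention motif of PDGF-B, the growth factor that recruits pericytes, and ret/ret mice lack many of their pericytes.

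The columns of the table name a plate and a well, and the labels give a running cell number, so no cell could be given a genotype here and no genotypes were compared. The labels name no animal. The 1187 cells were therefore treated as 1 pooled sample, values are given plate by plate (plates 521, 522, 523 and 524), and no tests were made. A plate may coincide with a genotype, an animal or a processing batch, and these cannot be told apart. Plates 521 to 524 held 300, 290, 285 and 312 cells. Plates 521 and 522 together held as many cells as there are ret/+ labels (590). Plates 523 and 524 together held as many as there are ret/ret labels (597). No column states the genotype of a plate, and this match of counts was not used to assign one.

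In the canonical pathway, a Wnt ligand that binds a Frizzled receptor and its LRP co-receptor keeps beta-catenin from being degraded, and beta-catenin then works with LEF and TCF factors at target genes. Brain endothelium receives this signal through Frizzled 4 with TSPAN12, which answers the ligand Norrin, and through ADGRA2 (GPR124) with RECK, which answer WNT7A and WNT7B. The pathway is known for inducing and keeping the blood-brain barrier. Several of its targets, among them Axin2, Nkd1 and Apcdd1, restrain the pathway in turn.

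The cells held 418924921 counted reads, between 100779 and 584112 a cell. Median depth per cell was 373444, 349606, 364499 and 355056 reads on plates 521 to 524, while the median number of genes read per cell was 5118.5, 4638, 4048 and 4344.5. All 11 endothelial markers listed were read at 5 CPM (a gene's reads scaled to a common library total) or more, and their summed level lay between 13679 and 16086 CPM over the plates. Levels below are CPM of the counts summed over cells, with exact Poisson 95% intervals where given. Shares of cells are at a fixed depth of 100000 reads per cell, with exact Clopper-Pearson 95% intervals. Both intervals cover counting error only.

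Lef1 (chromosome 3, 131110471 to 131224356 on GRCm38), the transcription factor that carries beta-catenin to DNA, was the member read in most cells. It had a read in 98.7% of cells (interval 97.8 to 99.2%, and 99.2% before thinning) and a level of 680 CPM (677 to 682). Its level was 548, 673, 801 and 701 CPM on plates 521 to 524, so plate 521 was lowest and plate 523 highest. Over cells it had a mean of 682 CPM with an SD of 394, and the quartiles were 405 and 896 CPM.

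Tcf7 (chromosome 11, 52252371 to 52283014), a related factor of the same family, was read in 46.5% of cells at 94.7 CPM. Its plate levels were 82.3, 81.4, 95.5 and 118 CPM. Unlike Lef1 it was unevenly spread: the 119 cells with most of it held 53.8% of its summed level per cell, against 21.9% for Lef1.

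Among the receptors, Fzd4 (chromosome 7, 89404355 to 89413134), the Frizzled that binds Norrin, had the lowest share of cells of the 10. It was read in 30.3% of cells (27.7 to 33.0%) at 62.6 CPM, and its 119 highest cells held 73.6% of its level. Its plate levels were 44.0, 61.6, 76.4 and 68.9 CPM, lowest on plate 521. Tspan12 (chromosome 6, 21771395 to 21852515), the tetraspanin that strengthens Norrin signalling through FZD4, was read in 58.7% of cells at 227 CPM. Its 4 plates lay close together, at 248, 235, 198 and 227 CPM.

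Reck (chromosome 4, 43875530 to 43944806), the membrane-anchored protein that recognises WNT7, was read in 63.8% of cells at 332 CPM. It was highest on plate 521 and lowest on plate 524, with 420, 364, 323 and 223 CPM. Its share of cells followed the same order, with 78.7, 69.0, 57.5 and 50.3%. Adgra2 (chromosome 8, 27085583 to 27123436), the adhesion receptor that acts with RECK, was read in 44.1% of cells at 81.2 CPM, with 85.3, 89.9, 82.3 and 68.2 CPM on the plates.

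Among the targets, Tnfrsf19 (chromosome 14, 60963875 to 61046490), the TNF-receptor family member TROY, was read in 78.5% of cells at 478 CPM and held 432, 495, 459 and 526 CPM on the plates. Apcdd1 (chromosome 18, 62922231 to 62961179), a membrane inhibitor of Wnt signalling, was read in 76.9% of cells at 385 CPM. Its plates fell into high and low values, 522 and 462 CPM on plates 521 and 522 against 287 and 272 CPM on plates 523 and 524. Nkd1 (chromosome 8, 88521354 to 88594884), which binds Dishevelled and damps the signal, was read in 68.4% of cells at 270 CPM, with 234, 262, 266 and 318 CPM on the plates. Axin2 (chromosome 11, 108920349 to 108950783), a scaffold of the complex that degrades beta-catenin and a widely used reporter of the pathway, was the lowest member at 40.1 CPM. It was read in 44.0% of cells and was the most even over plates, with 41.4, 42.3, 36.1 and 40.5 CPM.

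In all, 6 of the 10 members (Lef1, Apcdd1, Nkd1, Tspan12, Reck and Tnfrsf19) were read in at least 50% of cells at fixed depth, against 5.83% of the 35549 genes read in any cell. A cell held reads of a median of 6 members, with a range from 0 to 10. The median was 7 members on plates 521 and 522 and 6 on plates 523 and 524.

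**Figure D1:**
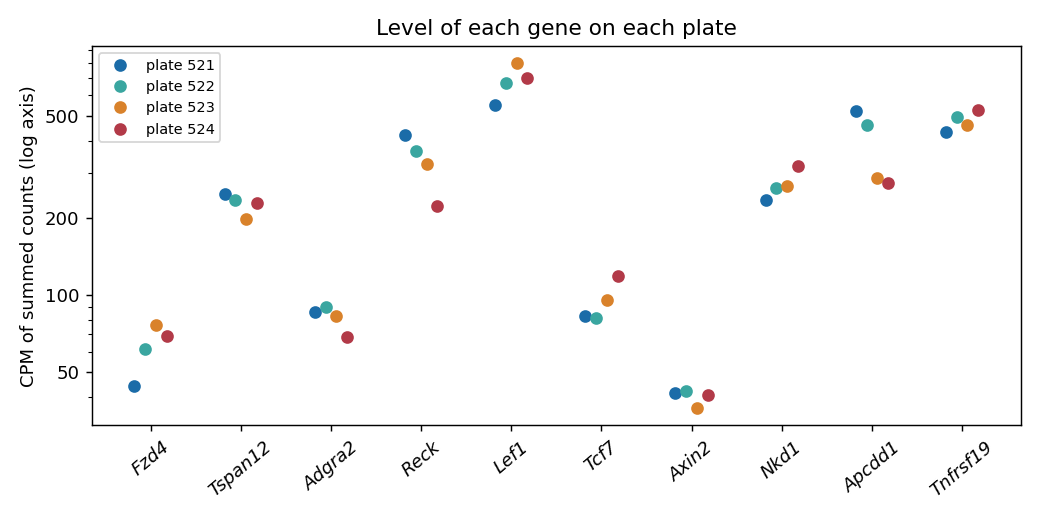
CPM of counts summed over the cells of each plate (log axis) for the 10 genes, receptors first, then transcription factors, then targets, with 1 point for each of the 4 plates. The 4 points of Axin2 lie between 36.1 and 42.3 CPM, while those of Reck run from 420 down to 223 and those of Apcdd1 from 522 down to 272.

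Levels of different genes were compared per kilobase of merged exons (GENCODE M21). On that scale Tnfrsf19 was highest at 101 CPM per kb (91.2 to 111 over plates), followed by Lef1 at 77.3 (62.4 to 91.2), Reck at 69.4 (46.6 to 87.8), Tspan12 at 68.7 (59.8 to 75.0) and Nkd1 at 59.3 (51.3 to 69.9). Over plates, the range of each of these 5 overlapped that of its neighbour in the order. Plate by plate, however, Tnfrsf19 was above Lef1 on each, with 91.2, 105, 96.8 and 111 against 62.4, 76.6, 91.2 and 79.8 CPM per kb. Tcf7 at 36.1 CPM per kb (31.0 to 45.1) and Apcdd1 at 29.9 (21.1 to 40.5) came next and also overlapped each other. Below them lay Adgra2 at 14.1 CPM per kb (11.8 to 15.6), Fzd4 at 9.31 (6.54 to 11.4) and Axin2 at 7.28 (6.55 to 7.68), of which the last pair overlapped. The place of Lef1 depends on the exon model: with the exons of the basic annotation, an alternative chosen after the data were seen, it stood at 194 CPM per kb and was the highest of the 10.

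The reading of Lef1 carries a further limit. A separate row of the table named RP24-176P19.3 stands directly beside Lef1 and moved with it from cell to cell, with Pearson r = 0.81 over 1187 cells on plate-centred log2(CPM + 1) values. It was read in 97.7% of cells at 354 CPM, with a median of 0.534 reads for each Lef1 read. Its locus is not given in the annotation used here, which does hold an antisense gene, Gm43352, that shares 1208 bases with Lef1 exons (13.7% of their length). No label states how the counting treated strand, and reads from Lef1 and from an antisense partner cannot be told apart here. The plate order of this row was that of Lef1, with 275, 354, 430 and 362 CPM.

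Of the 10 members, 3 differed by 1.5-fold or more between their highest and lowest plate: Apcdd1 (1.91-fold), Reck (1.88-fold) and Fzd4 (1.74-fold). The same was true of 54.0% of the 12428 genes measured, so the share among the members lies below the background. The plates also differed in the make-up of their cells, described next, and within 1 kind of cell the Reck and Apcdd1 differences remained. In cells with the capillary marker alone, Reck fell from 581 and 514 CPM on plates 521 and 522 to 336 and 238 CPM on plates 523 and 524, a 2.44-fold range. Apcdd1 in these cells went from 575 and 439 CPM to 385 and 290 CPM (1.98-fold), and Tcf7 had a 1.84-fold range with its highest value, 140 CPM, on plate 524. Fzd4 had a range of 1.27-fold there.

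Markers of pericytes were not level across plates either. The summed level of 8 pericyte markers, of which 3 reached 5 CPM and none was at 0 reads, was 21.5, 25.8, 139 and 85.1 CPM on plates 521 to 524. The 6 fibroblast markers summed to 48.9, 4.44, 42.3 and 8.98 CPM, with 2 at 5 CPM or more and none at 0 reads. The 5 erythroid markers, of which 1 reached 5 CPM and none was at 0 reads, summed to 30.1, 21.7, 5.68 and 5.10 CPM, high on the plates where Apcdd1 and Reck were high. The part of these in the plate differences was not tested. Without the 23 cells that held 3 or more markers of another cell type at 100 CPM or more, Reck stood at 416, 365, 322 and 224 CPM and Apcdd1 at 520, 460, 287 and 274 CPM. In the 149 cells with 100 CPM or more of pericyte markers in sum, Reck had 303 CPM, against 336 CPM in the other 1038 cells, and Apcdd1 337 against 392 CPM.

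Vessel zones were read from transcripts in each cell. A marker counted as present at 5 or more reads of 100000 (50 CPM). Bmx, a kinase, and Gkn3, a secreted protein, mark arterial endothelium. Nr2f2, the venous fate factor COUP-TFII, and Il1r1, the interleukin-1 receptor, mark veins, and Mfsd2a, a lipid transporter, marks capillaries. Mfsd2a is also among the barrier genes tied to the Wnt pathway that are counted below. Comparisons that use Mfsd2a are therefore not independent of the pathway's own genes. By this rule 254 cells were arterial-marker cells (Bmx or Gkn3, no venous marker), 173 were venous-marker cells (the converse) and 457 were capillary-marker cells (Mfsd2a, none of the other 4). A further 44 cells had arterial and venous markers, and 259 had none of the 5. Mfsd2a was also present in 40.2% of arterial-marker and 49.7% of venous-marker cells, so these classes are not the ends of the vessel tree alone.

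The plates held different shares of these classes. Plates 521 to 524 held 80, 76, 45 and 53 arterial-marker cells, 50, 46, 35 and 42 venous-marker cells, and 57, 80, 149 and 171 capillary-marker cells. Just inside the threshold, 14 cells had 5 to 7 reads of their highest arterial marker, 31 of their highest venous marker and 11 of Mfsd2a. Just outside it, 17, 27 and 11 cells had 3 or 4 reads. The venous-marker class depended on the threshold, with 214 cells at 1 read and 114 at 20 reads. Arterial-marker cells numbered 301 and 209, and capillary-marker cells 439 and 502, at these settings. In sum, genes held out of the rule followed the names, but not gene by gene. The 10 held-out arterial genes, among them Sema3g, Gja4 and Alpl, summed to 1635 CPM in arterial-marker cells, 77.0 in venous-marker and 305 in capillary-marker cells. All 10 were 1.5-fold or more higher in arterial-marker cells than in either other class. Of these, Vegfc and Eln were also higher by that fold in venous- than in capillary-marker cells. The 7 held-out venous genes, among them Vwf and Slc38a5, summed to 3178 CPM in venous-marker, 1626 in arterial-marker and 958 in capillary-marker cells. Vwf alone gave 1532.5 CPM of the sum in venous-marker cells. Ephb4 did not follow, at 122 CPM in venous-marker, 110 in arterial-marker and 122 in capillary-marker cells. The 6 held-out capillary genes summed to 5972 CPM in capillary-marker cells, but venous-marker cells were close at 4927 CPM and arterial-marker cells had 1835 CPM. Only 1 of the 6, Rgcc, was 1.5-fold or more lower in venous- than in capillary-marker cells, and Car4 was level at 962 and 944 CPM.

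Nkd1 showed the largest difference between zones of the 10 members. It stood at 171 CPM (169 to 174) in arterial-marker cells, 340 CPM (335 to 344) in venous-marker cells and 319 CPM (316 to 322) in capillary-marker cells. On plates 521 to 524 the arterial-marker values were 193, 180, 88.5 and 197 CPM, the venous-marker values 290, 279, 366 and 443 CPM, and the capillary-marker values 235, 345, 304 and 350 CPM. The highest arterial-marker plate thus lay below the lowest plate of either other class. The log2 ratio of arterial-marker to venous-marker cells was -0.98, a 1.97-fold lower level, with -0.59, -0.64, -2.04 and -1.17 within the plates (SD 0.67). Against capillary-marker cells it was -0.89, with -0.29, -0.94, -1.77 and -0.83 within the plates.

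The difference lay both in how many cells had reads and in how many reads they had. Nkd1 was read in 56.3% of arterial-marker cells (50.0 to 62.5%), 74.6% of venous-marker cells (67.4 to 80.9%) and 75.7% of capillary-marker cells (71.5 to 79.6%). The median over cells with a read was 183 CPM in arterial-marker, 367 CPM in venous-marker and 341 CPM in capillary-marker cells. Cell-to-cell spread was wide, with a mean of 167 CPM and an SD of 244 in arterial-marker cells and 348 CPM with an SD of 360 in venous-marker cells.

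Apcdd1 went the same way with a smaller and less even difference. It had 289 CPM in arterial-marker cells, 411 CPM in venous-marker cells and 384 CPM in capillary-marker cells. On plates 521 to 524 the arterial-marker values were 429, 380, 94.7 and 126 CPM, the venous-marker values 487, 530, 187 and 372 CPM, and the capillary-marker values 575, 439, 385 and 290 CPM. The arterial-marker value was the lowest of the 3 classes on each plate, but the classes overlapped between plates. The log2 ratio to venous-marker cells was -0.51, within plates -0.18, -0.48, -0.97 and -1.56, and that to capillary-marker cells was -0.41, within plates -0.42, -0.21, -2.01 and -1.20. The SD of the within-plate ratios was 0.60 and 0.82, larger than the size of either pooled ratio. The pooled ratios also carry the unequal spread of the classes over plates, so they are not the centre of the within-plate ratios. The share of cells with a read was 63.0% in arterial-marker, 83.8% in venous-marker and 79.4% in capillary-marker cells, and was lowest in arterial-marker cells on each plate.

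Lef1 was lower in arterial-marker than in capillary-marker cells by a similar amount on each plate. It had 557 CPM in arterial-marker, 688 CPM in venous-marker and 775 CPM in capillary-marker cells. The arterial-marker values were 520, 601, 601 and 523 CPM on plates 521 to 524 and the capillary-marker values 735, 738, 830 and 755 CPM, so the highest arterial-marker plate lay below the lowest capillary-marker plate. The log2 ratio was -0.47, with -0.50, -0.29, -0.47 and -0.53 within the plates, and its SD of 0.10 was the smallest of the 10 in that comparison. Against venous-marker cells the log2 ratio was -0.30. Within the plates it was 0.01, -0.27, -0.54 and -0.45, so plate 521 showed no difference. The neighbouring row RP24-176P19.3 had 287, 342 and 409 CPM in arterial-, venous- and capillary-marker cells, in the order of Lef1, and with it added the log2 ratio to capillary-marker cells was -0.49.

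**Figure D2:**
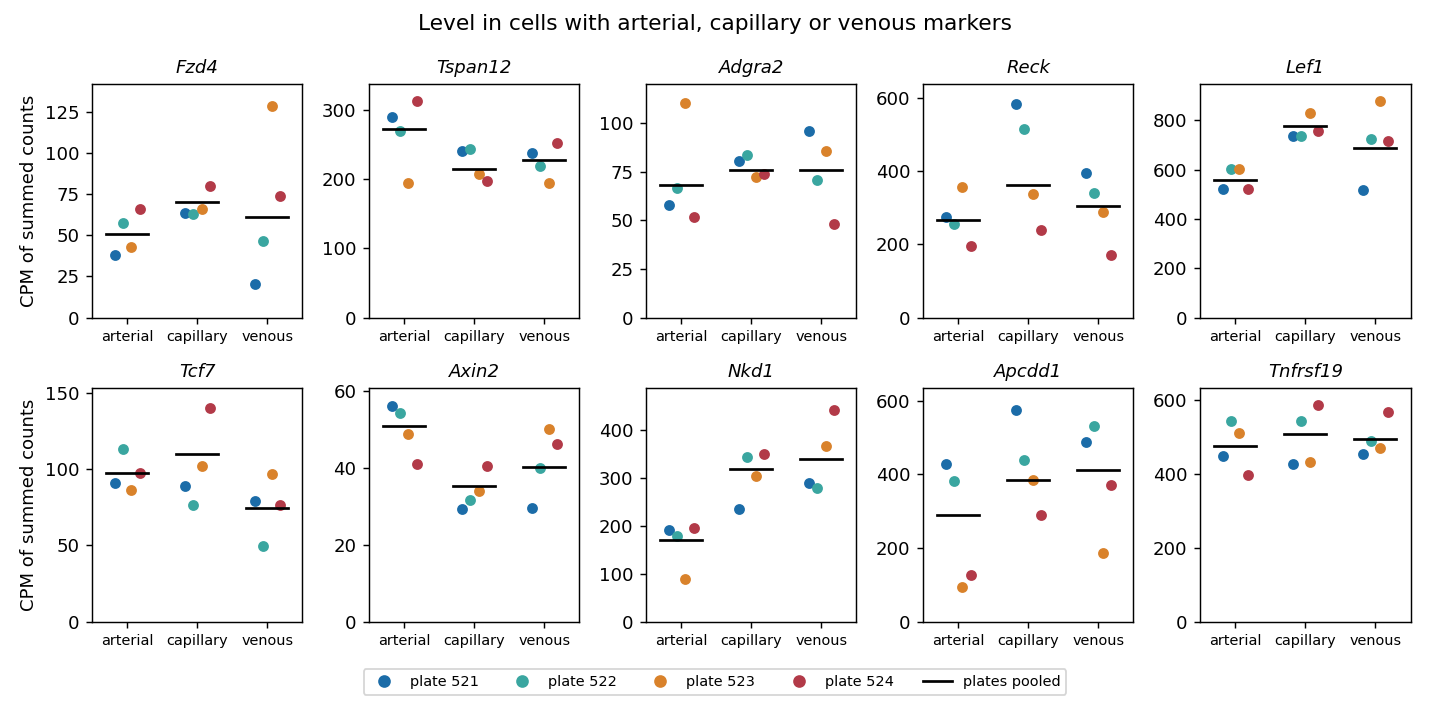
CPM of summed counts for each gene (1 panel each, axes from 0) in arterial-, capillary- and venous-marker cells, with 1 point for each plate and a black line for the 4 plates pooled. For Nkd1 the arterial points (88.5 to 197 CPM) lie below all capillary points (235 to 350) and venous points (279 to 443), while for Tnfrsf19 the 3 classes overlap.

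Axin2 and Tcf7 did not have their lowest level in arterial-marker cells. Axin2 was highest in arterial-marker cells, at 50.9 CPM, against 40.3 in venous-marker and 35.4 in capillary-marker cells. Its log2 ratio of arterial- to capillary-marker cells was 0.51, and within the plates it was 0.92, 0.76, 0.51 and 0.01, so plate 524 showed almost none. In the 112 cells with both Bmx and Gkn3, Axin2 was at 38.4 CPM and the ratio fell to 0.11. On plates 521 to 524 these cells had 37.7, 56.3, 31.3 and 21.0 CPM, against 29.3, 31.7, 34.1 and 40.6 CPM in capillary-marker cells. Against venous-marker cells Axin2 was higher on 2 plates and lower on 2. Tcf7 was lowest in venous-marker cells, at 74.7 CPM, against 97.5 in arterial-marker and 110 in capillary-marker cells. Its log2 ratio of venous- to capillary-marker cells was -0.55, a 1.46-fold lower level, and was below 0 on each of the 4 plates, from -0.86 to -0.07. Tnfrsf19 had 474, 493 and 506 CPM in arterial-, venous- and capillary-marker cells, the order of Lef1 but the most even level of the 10 in relative terms over the 3 classes.

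None of the receptors and co-receptors reached 1.5-fold between zones. Tspan12 had 273 CPM in arterial-marker, 228 in venous-marker and 215 in capillary-marker cells, and was read in 68.1, 56.1 and 56.2% of them. It was the 1 member higher in arterial- than in venous-marker cells on each plate, with log2 ratios between 0.01 and 0.31. Fzd4 had 50.5, 61.4 and 70.3 CPM in arterial-, venous- and capillary-marker cells. It was lower in arterial- than in capillary-marker cells by a log2 ratio of -0.47 and on each plate, with ratios from -0.72 to -0.14, but its venous-marker values ran from 20.5 CPM on plate 521 to 129 CPM on plate 523. Reck had 266, 305 and 363 CPM in the 3 classes. Its log2 ratio of arterial- to capillary-marker cells was -0.44, lower on 3 plates and running from -1.08 on plate 521 to 0.08 on plate 523. It was lower in venous- than in capillary-marker cells on each plate (log2 ratio -0.25, from -0.60 to -0.23). With upper-quartile scaling Fzd4 and Reck passed 1.5-fold against capillary-marker cells in both comparisons. Adgra2, with 68.3, 75.9 and 75.8 CPM, showed no order that held over the plates.

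Counted over the 10 members, 1 (Nkd1) was 1.5-fold or more lower in arterial- than in venous-marker cells, where 11.9% of the 11989 genes measured were, and 0 were higher by that fold, where 13.7% were. Against capillary-marker cells 1 member (Nkd1) was lower, where 9.18% of genes were, and 0 were higher, where 12.1% were. Between venous- and capillary-marker cells 0 members were lower and 0 higher, where 10.3% and 12.1% of genes were. The members' counts are thus near or below the background in all 3 comparisons. Leaving out a plate moved these counts: without plate 521 there were 2 members lower in arterial- than in venous-marker cells (Nkd1 and Apcdd1), and without plate 521, 523 or 524 there were 2 lower than in capillary-marker cells (Nkd1 with Apcdd1 or Reck). The share of all genes was not counted with a plate left out. Among genes at 100 CPM or more on either side, 6.25% were lower than in venous-marker and 5.90% lower than in capillary-marker cells by that fold. With the added condition that the gene be lower on each plate, which Nkd1 met, 4.96% and 4.48% of all measured genes were. By direction alone, 4 members (Lef1, Apcdd1, Nkd1 and Fzd4) were lower in arterial- than in capillary-marker cells on each of the 4 plates, where 9.86% of genes were, and 1 (Axin2) was higher on each, where 10.7% were. Against venous-marker cells 2 (Apcdd1 and Nkd1) were lower on each plate, where 9.74% of genes were, and 1 (Tspan12) was higher, where 11.3% were. In venous- against capillary-marker cells 2 (Tcf7 and Reck) were lower on each plate, where 9.15% were, and 1 (Axin2) was higher, where 7.81% were, but the pooled Axin2 ratio of 0.18 turned to -0.42 with both markers of the zone, -0.21 with upper-quartile scaling and -0.14 with markers at 20 reads. The median log2 ratio of the 10 was -0.17 against venous-marker and -0.29 against capillary-marker cells, beside 0.00 and 0.02 over all measured genes.

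For Nkd1, cells with both markers of a zone stood further apart than cells with 1. It was at 123 CPM in the 112 cells with Bmx and Gkn3, at 211 CPM in the 81 with Bmx alone of this pair and at 206 CPM in the 61 with Gkn3 alone. On the venous side it was at 285 CPM in the 72 cells with Il1r1 alone, at 350 CPM in the 58 with Nr2f2 alone and at 413 CPM in the 43 with Nr2f2 and Il1r1. The ends of this series, cells with both arterial and cells with both venous markers, differed by a log2 ratio of -1.75. Apcdd1 was at 196 CPM in cells with Bmx and Gkn3 against 422 CPM in those with Nr2f2 and Il1r1 (log2 ratio -1.10), and Lef1 at 507 against 671 CPM (-0.40). Tcf7 and Tspan12 went the other way, with 94.9 against 50.3 CPM (0.90) and 288 against 166 CPM (0.79). Between these ends 21.7% of measured genes were 1.5-fold or more lower and 24.7% higher. How common larger differences were was not counted, and plates 522 and 524 held 6 and 8 cells with both venous markers.

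**Figure D3:**
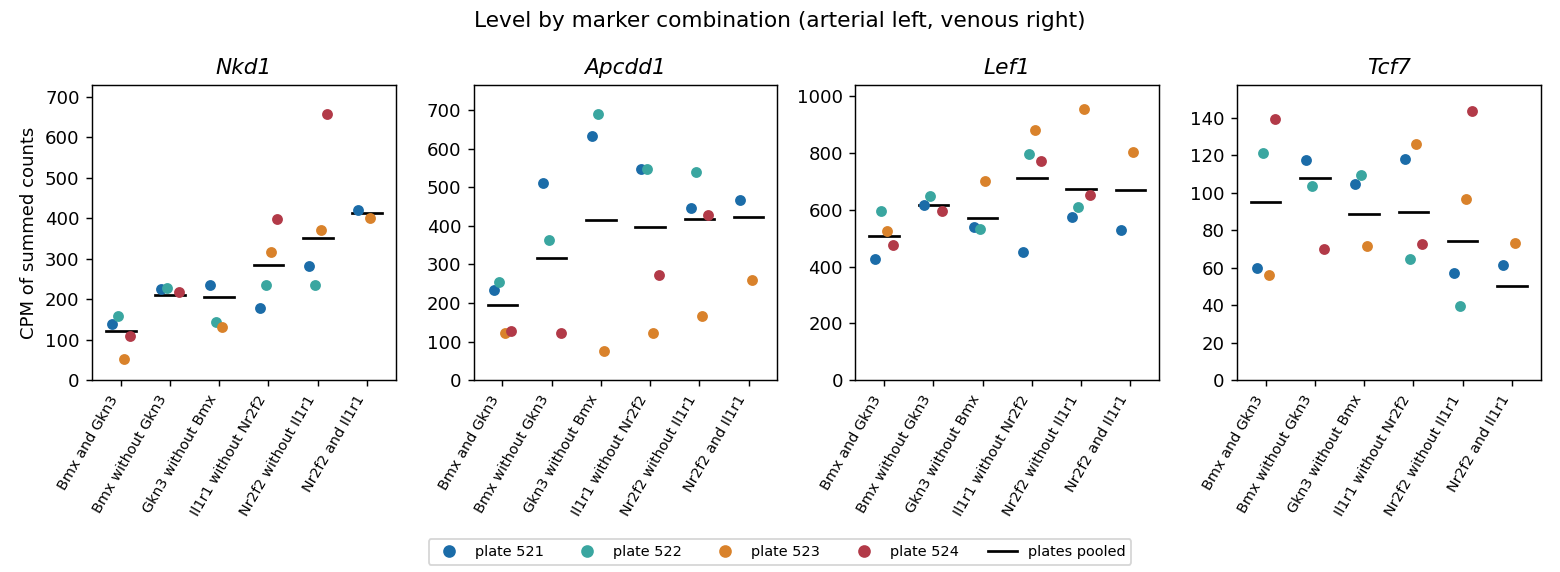
CPM of summed counts of Nkd1, Apcdd1, Lef1 and Tcf7 (axes from 0) in cells grouped by which arterial markers (left) or venous markers (right) they held, with 1 point for each plate with at least 10 such cells and a black line for all plates pooled. The Nkd1 lines run from 123 CPM in cells with Bmx and Gkn3 to 413 CPM in cells with Nr2f2 and Il1r1, while the Tcf7 lines run from 94.9 to 50.3 CPM. On plates 521 and 523, which have points at both ends, the Tcf7 point is lower at the arterial end.

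Arterial-marker cells were also split by Mfsd2a, which is itself among the barrier genes tied to the pathway. In the 102 arterial-marker cells with Mfsd2a, Nkd1 had 228 CPM and was read in 70.6% of cells, and in the 152 without it Nkd1 had 132 CPM and was read in 46.7%. On plate 521 the pair did not differ (192 and 193 CPM), while on plates 522, 523 and 524 cells with Mfsd2a were higher, at 242, 167 and 272 CPM against 132, 9.11 and 77.0 CPM. Lef1 had 648 CPM with Mfsd2a and 495 CPM without, and was higher with it on each of the 4 plates. Apcdd1 had 313 CPM with and 272 CPM without Mfsd2a, and was also higher with it on each plate. Among venous-marker cells Nkd1 had 406 CPM with Mfsd2a and 274 CPM without, and was higher with it on the 3 plates that held 10 or more of each, with 286, 419 and 464 CPM against 274, 242 and 389 CPM on plates 522, 523 and 524. Tcf7 had 89.5 and 60.1 CPM, but on plate 522 it went the other way, with 45.0 CPM with Mfsd2a and 53.5 CPM without. Plate 521 held 9 venous-marker cells with Mfsd2a and 41 without.

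Capillary-marker cells were also split by their amount of Mfsd2a. In the 154 cells with the least, the 151 in the middle and the 152 with the most Mfsd2a, Lef1 had 757, 776 and 791 CPM and Nkd1 326, 306 and 325 CPM. Apcdd1 had 351, 372 and 428 CPM, and Fzd4 had 53.1, 72.0 and 85.3 CPM, so both pooled levels were higher with more Mfsd2a. Within plates the order did not hold throughout. Fzd4 fell on plate 522, with 72.4, 62.2 and 55.2 CPM. It had 44.6, 42.8 and 105 CPM on plate 523 and 61.0, 87.4 and 87.2 CPM on plate 524. Apcdd1 was higher in the highest than in the lowest group on plates 522, 523 and 524, but on plate 524 it had 240, 322 and 298 CPM. The plates held unequal parts of these 3 groups, and plate 521 had 4 cells in the highest, so the pooled values also carry plate differences.

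**Figure D4:**
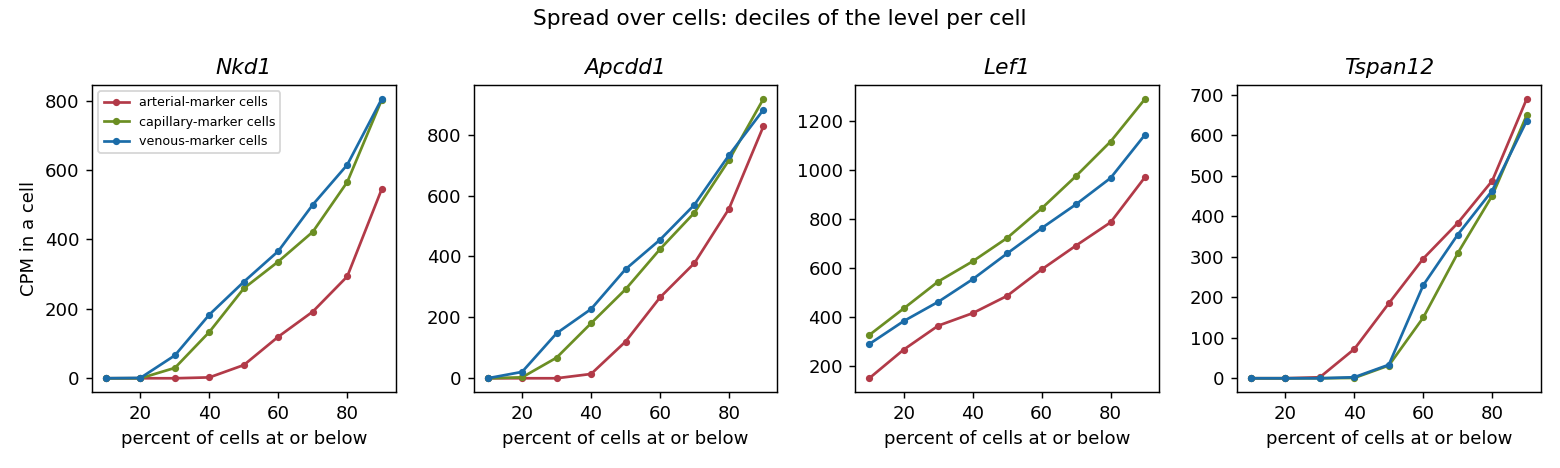
Level per cell in CPM at each decile of cells (10 to 90% of cells at or below that level) for Nkd1, Apcdd1, Lef1 and Tspan12, with 1 line for each class of cells. Along the Nkd1 line the median cell is at 38.1 CPM in arterial-marker, 259 in capillary-marker and 278 in venous-marker cells, and the Lef1 lines stay apart at every decile shown.

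Other cell types moved with the zones to some extent. The 8 pericyte markers summed to 33.6 CPM in arterial-marker, 55.1 in venous-marker and 116 in capillary-marker cells, and 7 astrocyte markers, of which 4 reached 5 CPM, to 233, 147 and 299 CPM. Most of the latter was Gja1, a gap junction gene at 185 CPM over all cells. The 6 fibroblast markers summed to 4.89, 2.42 and 30.5 CPM in the 3 classes. No marker on these lists was at 0 reads. Their part in the zone differences was not tested. Of the 23 cells with 3 or more markers of another type, 2 were arterial-marker, 6 venous-marker and 8 capillary-marker cells.

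Few genes tracked the members closely from cell to cell. The measure was Pearson r of plate-centred log2(CPM + 1) over the 1187 cells at fixed depth, which share library preparation and differences in RNA content, among genes read in at least 10% of cells. The genes most like Nkd1 were Tfrc, the transferrin receptor (r = 0.32), Gatm, an enzyme of creatine synthesis (0.30), Pglyrp1, a peptidoglycan recognition protein (0.26), Slc22a8, an organic anion transporter (0.26), and Itih5 (0.24). Those most like Apcdd1 were Slc7a5, a large amino acid transporter (0.31), Slc22a8 (0.31), Gatm (0.31), Slc40a1, the iron exporter ferroportin (0.30), and Ttyh2 (0.28). At the other end the gene with the lowest r for both was Alpl, the alkaline phosphatase among the held-out arterial genes (-0.23 for Nkd1 and -0.31 for Apcdd1). After RP24-176P19.3, the genes most like Lef1 had r of 0.27 or less. No gene passed r = 0.18 for the other 7 members, and correlations that weak in sparse counts are no finding.

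Between members the highest r was 0.20, for Apcdd1 and Nkd1, followed by 0.13 for Lef1 and Apcdd1. Over the 10021 genes compared, 99% had an r below 0.14 with Apcdd1 and below 0.13 with Nkd1, so this pair stood above most genes at a low absolute value. Nkd1 was read in 72.5% of the cells that had Apcdd1 reads and in 54.7% of the rest. Fzd4 and its partner Tspan12 were read together in 222 cells (18.7%), with Tspan12 in 61.7% of cells with Fzd4 and in 57.4% of cells without. Adgra2 and Reck were read together in 361 cells (30.4%), with Reck in 69.0% of cells with Adgra2 and in 59.6% of cells without.

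The rest of the pathway was followed through lists of its genes. Of 20 ligand genes, 3 (Wnt5a, Wnt5b and Wnt9a) reached 5 CPM in arterial- or venous-marker cells. Wnt7a, Wnt7b and Ndp, the gene of Norrin, which bind the receptors above, were at 0.167, 0.181 and 0.408 CPM over all cells. Wnt5a, a ligand best known outside the beta-catenin pathway, was at 48.0 CPM in venous-marker cells against 4.93 in arterial-marker and 4.24 in capillary-marker cells, and was highest in venous-marker cells on each plate. Over all cells it was read in 6.32%, so these levels rest on few cells.

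Among 21 receptors and co-receptors, 13 were measured between arterial- and venous-marker cells, and 1 was 1.5-fold or more higher and 2 lower, near the 13.7% and 11.9% of all measured genes. Fzd1, another Frizzled, was at 30.3 CPM in arterial-marker and 8.08 in venous-marker cells, higher on each plate, but was read in 6.49% of all cells. Fzd6 was the most abundant Frizzled before correction for length, at 342 CPM over all cells, and was also higher in arterial-marker cells on each plate (367 against 285 CPM), by less than 1.5-fold. The LRP co-receptors Lrp5 and Lrp6 stood at 23.8 and 85.3 CPM. None of the 12 cytoplasmic genes passed 1.5-fold in any of the 3 comparisons, and Ctnnb1, which encodes beta-catenin itself, had 1531, 1376 and 1595 CPM in arterial-, venous- and capillary-marker cells.

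Of 12 measured nuclear genes, 3 were 1.5-fold or more higher and 2 lower in arterial- than in venous-marker cells, beside 13.7% and 11.9% of all measured genes. Tcf7l2, another TCF factor, was at 36.2 against 58.2 CPM and Tle1, a co-repressor, at 67.7 against 115 CPM, each lower on all 4 plates. Pygo2, a co-activator, was at 94.2 against 58.2 CPM and Tle3, another co-repressor, at 46.8 against 24.9 CPM, each higher on 3 plates. Ctnnbip1, which blocks the binding of beta-catenin to TCF, was at 50.0 CPM in arterial-marker and 78.0 in capillary-marker cells.

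Of 8 measured feedback genes and antagonists, 1 was 1.5-fold or more higher and 3 were lower in arterial- than in venous-marker cells, Nkd1 among the latter, beside 13.7% and 11.9% of all measured genes. Notum, an enzyme that inactivates Wnt ligands, was at 38.9 CPM in arterial-marker, 72.1 in venous-marker and 139 in capillary-marker cells, and lower in arterial-marker cells on each plate in both comparisons. Nkd2, the paralog of Nkd1, was at 12.9 CPM in arterial-marker, 34.1 in venous-marker and 3.44 in capillary-marker cells. Unlike Nkd1, it was higher in arterial- than in capillary-marker cells on each plate, but it was read in 5.48% of all cells. Dkk2, a secreted antagonist, was at 20.7 CPM in arterial-marker cells and 0.0334 in venous-marker cells, higher on each plate. Dkk2 was read in 1.85% of all cells at fixed depth, so its level rests on few cells. Ccnd1, the cyclin D1 gene and a known target, was at 29.8 CPM in arterial-marker and 57.0 in venous-marker cells. It was the 1 of 3 measured genes on the list of other targets that was 1.5-fold or more lower, beside 11.9% of all measured genes. Ccnd1 was higher in arterial-marker cells on 1 plate, was read in 18.9% of all cells, and had 63.5, 87.8, 12.0 and 26.8 CPM on plates 521 to 524. Of 14 barrier and endothelial genes tied to the pathway, Sox17 (378 against 197 CPM) and Plvap (26.4 against 0.685 CPM, read in 4.30% of cells) were 1.5-fold or more higher in arterial- than in venous-marker cells and 0 were lower, beside the same 13.7% and 11.9%, while Slc2a1, the glucose transporter, was at 3353 and 3465 CPM. Against capillary-marker cells 2 were lower in arterial-marker cells (Mfsd2a, Spock2) and 2 higher (Plvap, Fgfbp1), beside 9.18% and 12.1%. In venous-marker cells 4 were lower (Mfsd2a, Slco1c1, Plvap, Spock2) and 1 higher (Fgfbp1), beside 10.3% and 12.1%. Mfsd2a is in both counts of lower genes because it defines the capillary-marker class, so its lower level there is no result. Spock2 had 1176, 1060 and 1784 CPM in arterial-, venous- and capillary-marker cells, and Slco1c1 1592, 1231 and 1896. Fgfbp1 had 273, 306 and 88.1, and ran from 699 (plate 521) to 0.459 (plate 524).

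Promoter sequence is shown for Nkd1 and Lef1, which were lower in arterial-marker cells, and for Axin2, which was not. RefSeq promoter windows of 250 bases before a gene's start (GRCm38.p6) were matched for 8 of the 10 members (not Apcdd1 and Adgra2), 13 windows in all, and searched on both strands for CTTTGA (reverse complement TCAAAG), the core bound by LEF and TCF factors. It was present in 13.8% of 32851 such windows. The search found it in the window of 1 of 4 starts of Lef1, at 180 and 120 bases before the start, and in 1 of 2 starts of Tnfrsf19. The windows below read 5′ to 3′ on the gene's strand, and capitals mark the core where these letters occur.
Nkd1, chr8:88527383-88527632, plus strand: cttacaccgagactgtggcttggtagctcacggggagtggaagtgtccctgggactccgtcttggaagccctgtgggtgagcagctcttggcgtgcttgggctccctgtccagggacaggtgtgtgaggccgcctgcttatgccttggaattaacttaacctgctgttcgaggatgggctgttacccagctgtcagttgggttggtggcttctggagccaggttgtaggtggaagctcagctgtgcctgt
Lef1, chr3:131156044-131156293, plus strand: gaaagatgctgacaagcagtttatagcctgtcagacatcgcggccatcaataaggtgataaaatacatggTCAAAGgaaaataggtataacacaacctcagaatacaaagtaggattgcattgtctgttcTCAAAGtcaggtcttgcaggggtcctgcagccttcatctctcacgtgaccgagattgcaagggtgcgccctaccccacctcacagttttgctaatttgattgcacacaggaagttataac
Axin2, chr11:108920099-108920348, plus strand: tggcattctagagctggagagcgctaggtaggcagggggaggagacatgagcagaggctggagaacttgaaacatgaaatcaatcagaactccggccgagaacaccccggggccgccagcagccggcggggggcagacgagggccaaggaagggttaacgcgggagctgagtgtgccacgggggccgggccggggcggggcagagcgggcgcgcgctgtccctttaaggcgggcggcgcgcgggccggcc
The printed Lef1 window, that of start 4, holds 2 cores and the printed Nkd1 and Axin2 windows hold none. The windows of Lef1 starts 1, 2 and 3, not printed, also hold none, so this contrast rests on which Lef1 window is shown. Those of starts 1 and 2 lie before the annotated gene start. The printed Lef1 and Nkd1 windows precede RefSeq starts that lie inside the genes as GENCODE annotates them, so neither is the sequence before the annotated gene start. A match of these letters is a description of the window and no evidence of binding, and their absence says only that they are not in this window.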

How the data were processed

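The deposited table holds raw counts per gene and cell, for which the submitters' processing notes list TopHat2 2.1.1, featureCounts of Subread 1.4.6-p5, SAMtools 0.1.18 and the build GRCm38. Strand handling was not given in the sources used here. Counts were read with pandas 2.3.3 and numpy 2.4.6, and intervals came from scipy 1.17.1. Each cell was thinned once to 100000 reads for classes and shares, and no cell had fewer. CPM were taken from unthinned sums. Log2 ratios used a prior of 1 CPM, a gene counted as measured at 5 CPM on either side, and a within-plate ratio needed 10 cells of each class. The planned genotype comparison was not made, since columns could not be matched to labels. There are no molecular identifiers, and doublets were not called. Calculations were checked on simulated data. Of the pathway lists, genes 1.5-fold apart with at least 20 CPM on either side were named, at most 4 per list and direction, with Ctnnb1, Lrp5, Lrp6 and the ligands of the receptors. The text also names Fzd6 and Slc2a1, chosen after their values were seen. The members and lists were chosen with earlier results of these data known.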

Additional observations from a re-analysis of the deposited data

How the results depend on the processing

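The lower level of Nkd1 in arterial-marker cells kept its direction in 16 of 16 alternatives, with log2 ratios from -1.75 to -0.81 against venous-marker and -1.37 to -0.77 against capillary-marker cells. Apcdd1 did so too, from -1.10 to -0.33 and from -0.97 to -0.22. Of 483 recomputed ratios of single members, 461 moved by less than their SD over plates. The sign changed in 41, each of a ratio whose reported size was at most 0.27 on the log2 scale, and 8 of these moved by more than that SD, all between venous- and capillary-marker cells. The counts of members past 1.5-fold are small and moved more. Under a changed setting, the share of all genes was counted only for both markers between arterial- and venous-marker cells. There 21.7% of genes were lower and 24.7% higher, against 11.9% and 13.7% as reported. The other counts below have no such share beside them, so they are no result about the members. For arterial- below venous-marker cells, 1 member became 2 (with Apcdd1) with markers at 20 reads, with both markers, without cells that had Mfsd2a, with the median of plates and without plate 521. For arterial- above venous-marker cells, 0 became 2 with both markers (Tcf7 and Tspan12) and 1 without Mfsd2a (Tcf7). With both markers Tcf7 was not higher within plates 521 and 523. For arterial- below capillary-marker cells, 1 became 2 at 20 reads, 3 with both markers, 2 without Mfsd2a, 3 with the median of plates and 5 with upper-quartile scaling. It ranged from 1 to 2 when single plates were left out. For arterial- above capillary-marker cells, 0 became 1 (Axin2) with the median of plates or without plate 524. For venous- below capillary-marker cells, 0 became 1 (Tcf7) at 20 reads, with both markers, without Mfsd2a, with the mean of cells' CPM and without cells holding markers of another type, 1 to 2 without plate 521 or 523, and 3 with upper-quartile scaling. Upper-quartile scaling also made 5 members, from 3, vary over plates. It moved the typical gene by 0.12 (arterial to venous), -0.27 (arterial to capillary) and -0.39 (venous to capillary) on the log2 scale, and the number of genes read at all was 28008, 26491 and 30129 in arterial-, venous- and capillary-marker cells. No paired analysis was possible because no column carries a genotype or a replicate number. With 1 pooled sample, neither plate nor cell spread measures differences between animals.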
